A study of Equus caballus with 24 samples.

Results

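The 10 genes followed here belong to the signalling pathways that set the pace of growth plate cartilage, and were measured by RNA-seq in Debao ponies (DPs), a small Chinese breed, and Mongolian horses (MHs). They are the hedgehog genes IHH, PTCH1, GLI1 and HHIP, the PTHrP genes PTHLH and PTH1R, the receptor FGFR3, and the C-type natriuretic peptide (CNP) genes NPPC, NPR2 and NPR3. A gene was taken when its symbol in the deposited tables equalled one of these names, and all 10 were found once each among 24232 genes with read counts and 24248 genes with RPKM (reads scaled by gene length and library size). The tissues were the pituitary and the epiphysis, the end of a long bone, of female animals that were juvenile (under 3 years of age) or adult (over 3 years). No animal carried a treatment or an engineered allele. The 24 libraries form 8 groups of 3, which are DPLBJ and DPLBA (juvenile and adult DP long bone), MHLBJ and MHLBA (the same of MHs), DPPJ and DPPA (DP pituitary) and MHPJ and MHPA (MH pituitary). A library is named below by its group and replicate number, so that DPLBJ3 is replicate 3 of DPLBJ.

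In a growth plate, chondrocytes that stop dividing and begin to enlarge secrete Indian hedgehog, the product of IHH. Hedgehog ligands bind the receptor PTCH1 and release the GLI transcription factors, and PTCH1, GLI1 and the decoy HHIP are themselves switched on by the pathway. Indian hedgehog also raises PTHrP, the peptide made from PTHLH, which acts through PTH1R to keep chondrocytes dividing and so delays their enlargement. FGFR3 restrains chondrocyte division and growth. CNP, made from NPPC, acts through the guanylyl cyclase NPR2 to favour long bone growth and is removed by the clearance receptor NPR3. Loss of function of NPR2 and gain of function of FGFR3 are textbook causes of short stature.

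The long bone libraries held between 11616518 and 27007342 reads on genes and the pituitary libraries between 11433209 and 23573036. Between 3188 and 15221 of these reads fell on the 10 genes in a long bone library and between 1681 and 4461 in a pituitary library. Reads were compared as CPM, in which TMM factors over the 24 libraries put all libraries on 1 scale. A gene was called a DEG when edgeR's quasi-likelihood test gave an unadjusted P under 0.05 and the fold change was over 2. The Benjamini-Hochberg adjusted p over all tested genes stands beside each called value of a member in its main fit. Log2 fold changes are DP minus MH, juvenile minus adult, or long bone minus pituitary, and are followed by their standard error. Reads come from whole tissue pieces, in which fewer cells of a type and less RNA per cell cannot be told apart. Per the methods, both tissues were taken from the horses of a breed and stage, but the labels do not say that libraries with the same number share a horse, so the contrast of tissues has no term for the animal, and the p-values measure only the spread between the libraries of a group.

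The libraries differed in what the tissue pieces held, and this touches most results below. Of 19 cartilage matrix genes, 17 were found in the tables, and their summed level was 8507, 15730, 34970 and 36620 CPM in DPLBJ2, DPLBA1, DPLBA3 and DPLBJ3. The 8 other long bone libraries lay between 351.3 and 2963 CPM. The collagen gene COL2A1, which defines cartilage, stood at 4948 to 16420 CPM in those 4 DP libraries, at 1236 CPM in MHLBA1 and at 41.6 CPM in DPLBA2. It was at 1.36 to 8.93 CPM in the other 6 long bone libraries, where COL10A1, the marker of enlarged growth plate chondrocytes, had at most 8 reads. The growth plate genes UCMA and EPYC had at most 3 and 8 reads in every long bone library. By UCMA and EPYC the name growth plate is therefore borne out for none of these pieces, and the genes are described below by their pathway. In the pituitary, the summed level of 8 hormone genes and factors of the anterior lobe was 11390 to 33910 CPM in 7 libraries and 0.493 to 35.7 CPM in DPPA1, MHPA1 and the 3 MHPJ libraries. DPLBA3, a long bone library, held 429 reads of GH and 700 of POMC, both pituitary hormone genes, against at most 137 and 75 in the other long bone libraries.

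Between the tissues, 4 genes were called higher in the long bone. Only NPPC, with a median of 4.5 reads in a pituitary library, was called higher in the pituitary. Per gene length, PTH1R led in the long bone with a median of 94.5 RPKM, above NPR2 at 20.2 RPKM in 12 of 12 libraries and with no overlap of their ranges. NPR2 and FGFR3 (16.3 RPKM) were in that order in 8 of 12 libraries, and so were NPR3 (4.64 RPKM) and PTCH1 (3.98 RPKM). The ligand genes and the remaining hedgehog genes followed, with PTHLH at 0.83 RPKM, IHH at 0.745, GLI1 at 0.63 and HHIP at 0.455. These 4 changed places from library to library, with adjacent pairs in that order in 5 to 7 of 12 libraries. NPPC had a median of 0. In the pituitary NPR2 had the highest median, 18.7 RPKM, but exceeded FGFR3 in only 8 of 12 libraries, and FGFR3, PTCH1, NPR3, PTH1R and PTHLH lay between 3.18 and 1.08 RPKM. Adjacent genes after NPR2 kept their order there in 5 to 9 of 12 libraries, so their places are not told apart.

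The contrast of 12 long bone with 12 pituitary libraries called 5 of the 10 genes, where 38.9% of 16131 genes were called. PTH1R was 62.6-fold higher in the long bone (log2 fold change 5.97 ± 0.30, adjusted p = 5.49e-11 in edgeR), and its lowest long bone library (111.3 CPM) exceeded its highest pituitary library (8.53 CPM). IHH was higher by 5.37 ± 0.89 (adjusted p = 4.21e-05) and had at most 7 reads in any pituitary library. GLI1 was higher by 2.62 ± 0.53 (adjusted p = 0.000314) and FGFR3 by 1.66 ± 0.63 (adjusted p = 0.0289). NPPC was the only called gene that was lower in the long bone, at −3.41 ± 1.21 (adjusted p = 0.0232). It was not called without DPPA1 (−2.41), with the replicate block (−3.60) or with limma on log2(RPKM + 1) (−0.75). Without DPLBA2 it stood at −5.15. FGFR3 moved to 2.43 without DPPA1 and to 2.53 without MHPA1, and IHH to 4.73 without DPLBJ3 and 4.79 without MHLBJ1. The values of HHIP (−1.14 ± 0.94), PTHLH (−0.94 ± 0.45), PTCH1 (0.47 ± 0.28), NPR3 (0.76 ± 0.43) and NPR2 (0.20 ± 0.16) were not called. The 5 pituitary libraries low in anterior lobe genes were also left out, a choice made after seeing the data. In that fit 6 of 9 tested members were called, where 40.2% of all tested genes were. The libraries left out hold the highest pituitary values of FGFR3, HHIP and NPR3, so the choice itself raises these differences. FGFR3 then stood at 4.26 ± 0.53, HHIP turned to 2.86 ± 0.84 (adjusted p = 0.00795), NPR3 reached 1.20 ± 0.31 (adjusted p = 0.00353), and NPPC had too few reads to be tested.

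**Figure D1:**
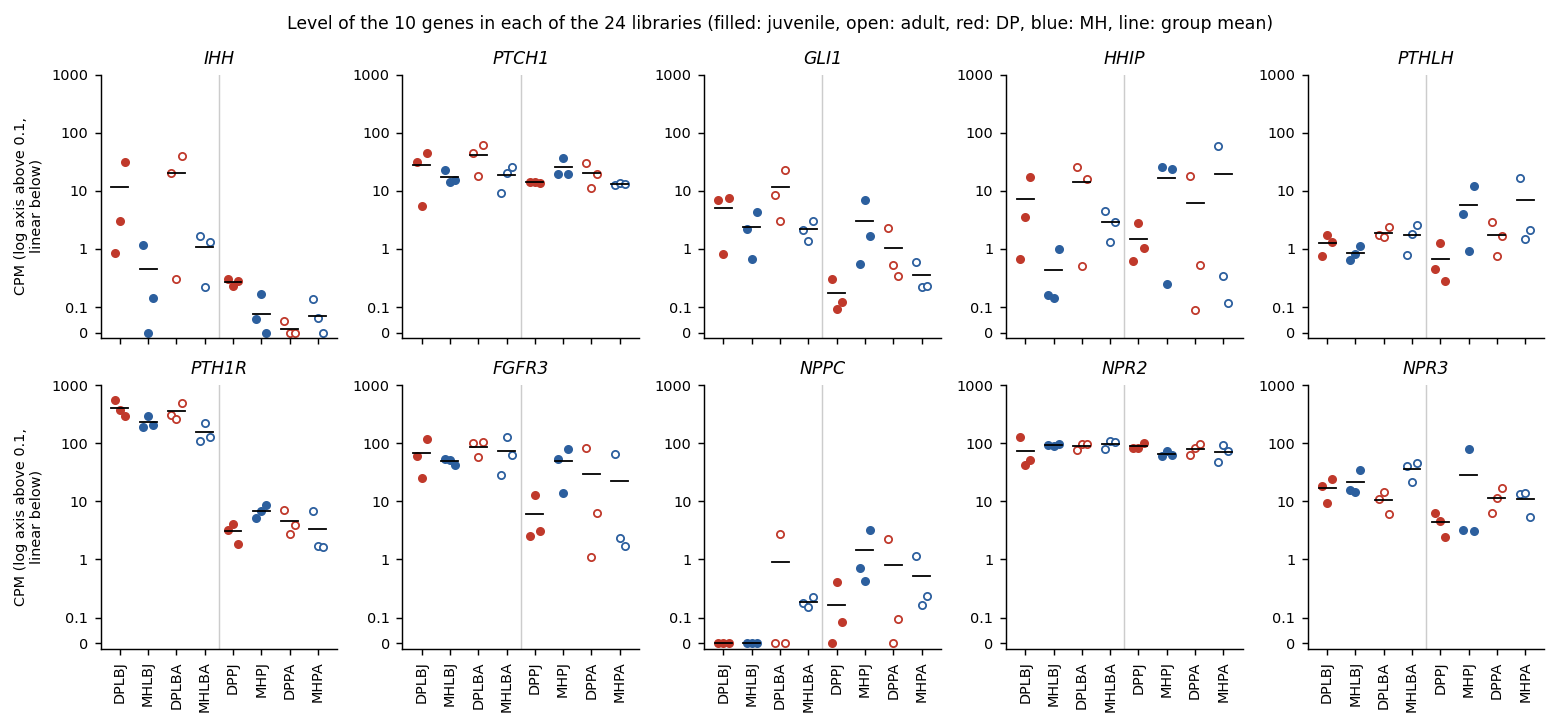
Level of each of the 10 genes in CPM (log axis above 0.1, linear below) by group, with 1 point per library, red for DP and blue for MH, filled for juvenile and open for adult, and a line at each group mean. PTH1R lies above 100 CPM in every long bone library and below 10 CPM in every pituitary library, while IHH and HHIP spread widely within the DP long bone groups.

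The hedgehog ligand differed most in size between the breeds in the long bone. IHH stood at 0.837, 3.04 and 30.8 CPM in DPLBJ1 to DPLBJ3 and at 20.6, 0.303 and 39.9 CPM in DPLBA1 to DPLBA3. In MHs it stood at 1.19, 0 and 0.145 CPM in MHLBJ1 to MHLBJ3 and at 1.66, 0.225 and 1.29 CPM in MHLBA1 to MHLBA3. DPLBJ3, DPLBA1 and DPLBA3 were far above every MH library, while DPLBJ1 and DPLBA2 lay within the MH range, so the groups overlapped at both stages. The log2 fold change was 4.79 ± 1.73 in juveniles (adjusted p = 0.226 in edgeR) and 4.26 ± 1.45 in adults (adjusted p = 0.133), and it was called at both stages. In all, 2 of 9 tested members and 13.8% of 13755 genes were called in juveniles, and 4 of 9 members and 18.3% of 14073 genes in adults. In edgeR's quasi-likelihood test no member reached an adjusted p under 0.05 in either comparison. DESeq2 gave adjusted p = 0.0136 for IHH and 0.0103 for HHIP in juveniles. In adults DESeq2 gave adjusted p = 0.00256 for NPR3, 0.0124 for GLI1, 0.0364 for PTH1R and 0.0472 for IHH, and edgeR's exact test passed the first 2 and IHH. The juvenile IHH value was 2.25 without DPLBJ3 and 7.14 without MHLBJ1. It was not called without DPLBJ3, MHLBJ2 (4.15) or MHLBJ3, nor with the replicate block or limma on log2(RPKM + 1). The adult value was 3.28 and not called without DPLBA3, and it was 4.86 without DPLBA2 and 4.87 without MHLBA1. It was not called by limma on either scale, log2(RPKM + 1) or log2(RPKM + 0.1).

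HHIP, the decoy that binds hedgehog ligands at the cell surface, rose in juvenile DPs as IHH did. It stood at 0.670, 3.56 and 17.6 CPM in DPLBJ1 to DPLBJ3, against 0.158, 0.142 and 1.01 CPM in MHLBJ1 to MHLBJ3. The adult values were 25.5, 0.505 and 15.8 CPM in DPLBA1 to DPLBA3, against 4.45, 1.31 and 2.96 CPM in MHLBA1 to MHLBA3. In both comparisons 1 DP library lay within or below the MH range. The juvenile difference was 3.96 ± 1.32 (adjusted p = 0.209 in edgeR), and it was 2.25 without DPLBJ3 and 5.51 without MHLBJ3. It was not called without DPLBJ3, MHLBJ1 or MHLBJ2, nor on either limma scale. The adult value of 2.22 ± 1.11 was not called (adjusted p = 0.267).

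PTCH1 and GLI1, the receptor and the transcription factor that serve as readouts of hedgehog activity, differed less. GLI1 stood at 8.42, 3.03 and 23.0 CPM in DPLBA1 to DPLBA3 against 2.10, 1.35 and 3.03 CPM in MHLBA1 to MHLBA3. The highest adult MH library thus reached the lowest adult DP library. The adult difference was 2.38 ± 0.76 (adjusted p = 0.118 in edgeR) and fell to 1.38, which was not called, without DPLBA3. Limma on log2(RPKM + 1) did not call it either. In juveniles GLI1 was at 7.03, 0.816 and 7.39 CPM in DPs and at 2.21, 0.662 and 4.34 CPM in MHs, a difference of 1.04 ± 0.92 that was not called. PTCH1 spanned 5.57 to 62.1 CPM over the 6 DP libraries and 9.17 to 25.9 CPM over the 6 MH libraries. Its differences of 0.64 ± 0.65 in juveniles and 1.16 ± 0.52 in adults (adjusted p = 0.647 and 0.222) were not called.

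The 4 hedgehog genes were compared with the cartilage list library by library. The 4 DP libraries rich in cartilage matrix RNA had IHH at 3.04 to 39.9 CPM and HHIP at 3.56 to 25.5 CPM, and 3 of them were the highest of all 12 for both genes. DPLBJ2, the fourth, had 4948 CPM of COL2A1 but the lowest PTCH1 (5.57 CPM) of the long bone and only 0.816 CPM of GLI1. DPLBJ1 had 0 reads of COL10A1 and 26 of ACAN, yet its GLI1 (7.03 CPM) and PTCH1 (31.5 CPM) were among the highest 4 of the tissue. In the juvenile breed comparison 12 of 13 tested cartilage genes were called higher in DPs and 1 lower, and in the adult comparison 5 of 14 were called higher and 1 lower. The osteoblast and osteocyte list (4 of 11 higher in juveniles, 5 of 11 in adults, none lower) and the blood-forming marrow list (5 of 5 and 3 of 3 higher) moved the same way. The adipocyte list was lower in DPs for 6 of 6 genes in juveniles and for none in adults. The striated muscle list was lower in DPs for 3 of 4 genes in juveniles and 3 of 3 in adults, with sums of 1.80 to 2.82 CPM in DPs and 2.79 to 331.1 CPM in MHs. The endothelial list was lower for 2 of 6 genes in juveniles and none in adults, and the neural list for 2 of 6 at each stage. The part of these lists in the differences of the 10 genes was not tested.

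**Figure D2:**
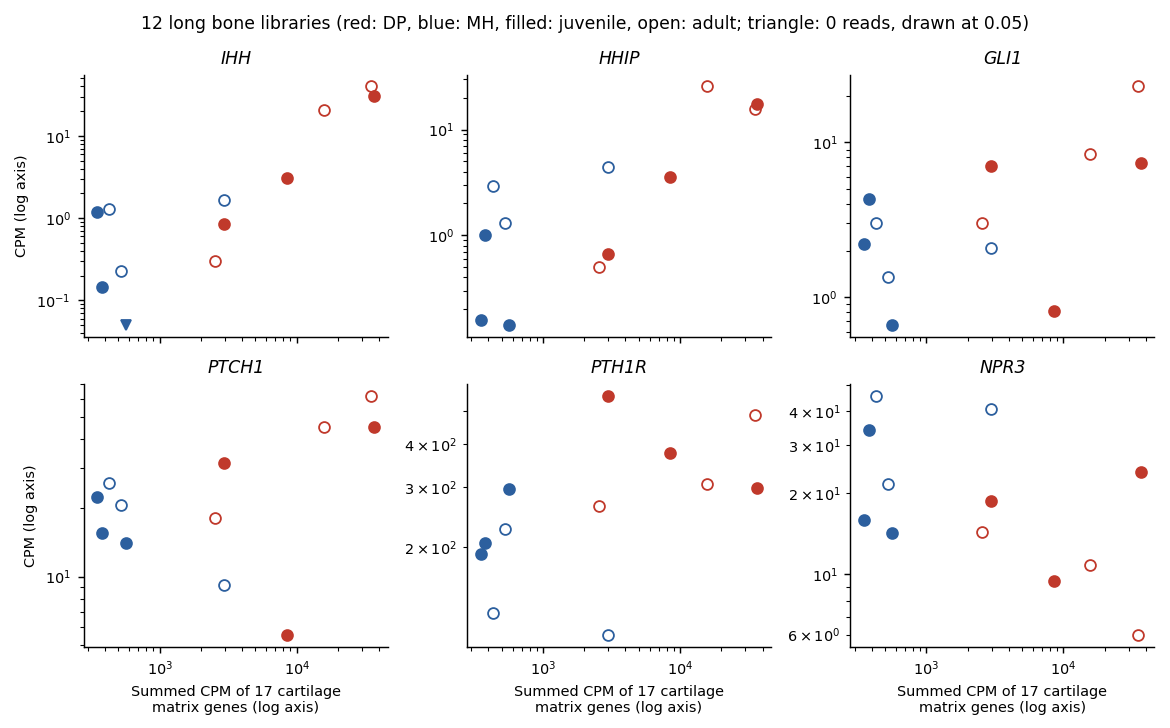
Level in CPM of 6 genes (vertical, log axis) against the summed CPM of 17 cartilage matrix genes (horizontal, log axis) in the 12 long bone libraries, red for DP, blue for MH, filled for juvenile and open for adult, with a triangle for 0 reads. IHH and HHIP are highest in the DP libraries at 15730 to 36620 CPM of cartilage genes, while PTH1R is highest in a DP library at 2959 CPM.

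Averaging the breed difference over both stages, 6 DP against 6 MH libraries, gave more precise values for the same libraries. This contrast was added after seeing the data, and 4 of 9 tested members and 19.3% of 14735 genes were called in it. IHH differed by 4.53 ± 1.26 (adjusted p = 0.0321 in edgeR), HHIP by 3.09 ± 0.95 (adjusted p = 0.0458) and GLI1 by 1.70 ± 0.65 (adjusted p = 0.089). GLI1 was not called without DPLBJ3 (1.52), DPLBA3 (1.21) or MHLBA2 (1.56), nor on either limma scale. IHH was 3.24 without DPLBJ3 and 5.70 without MHLBJ1, and HHIP was 2.20 without DPLBJ3 and 3.87 without MHLBJ3, all of them called. HHIP was not called on either limma scale. With the 4 DP libraries rich in cartilage RNA left out, which kept 2 DP and 6 MH libraries, IHH stood at −0.42 ± 1.47, HHIP at −0.998 ± 0.986 and GLI1 at 0.99 ± 0.68. No member was called in that fit, where 11.5% of all genes were. The 4 libraries were chosen by their cartilage sum after the data were seen and hold the 3 highest values of IHH and HHIP, so the choice itself lowers both genes and the fit does not test the part of cartilage RNA. MHLBA1, the MH library with the most cartilage RNA (2963 CPM), was kept. PTH1R stood at 0.99 ± 0.31 there (adjusted p = 0.173 in edgeR), under the 2-fold threshold.

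PTH1R, which receives PTHrP on chondrocytes and parathyroid hormone on osteoblasts, was the member whose breeds separated at both stages. It stood at 553.5, 376.8 and 297.8 CPM in DPLBJ1 to DPLBJ3 and at 191.0, 296.3 and 205.5 CPM in MHLBJ1 to MHLBJ3. In adults the values were 307.2, 264.2 and 487.4 CPM in DPLBA1 to DPLBA3 and 111.3, 226.9 and 128.9 CPM in MHLBA1 to MHLBA3. Every DP library was above every MH library of its stage, although DPLBJ3 and MHLBJ2 nearly met. Among all tested genes, 21.7% did not overlap between the breeds in juveniles and 29.5% in adults. The difference was 0.82 ± 0.33 in juveniles, under the 2-fold threshold (adjusted p = 0.259 in edgeR), and 1.16 ± 0.38 in adults, which was called (adjusted p = 0.121). The adult value was 0.86 without DPLBA3 and 1.05 without MHLBA3, neither of which was called. Over both stages it was 0.97 ± 0.25 (adjusted p = 0.0262), a fold of 1.96. The osteoblast and osteocyte list summed to 17730 to 91850 CPM in the DP long bone and 7065 to 41470 CPM in the MH long bone, and its part in this difference was not tested.

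The ligand PTHLH was low in the long bone, with 8 to 48 reads per library, and did not follow its receptor. It lay between 0.753 and 2.37 CPM in DPs and between 0.633 and 2.58 CPM in MHs. The breed differences were 0.57 ± 0.56 in juveniles and 0.12 ± 0.56 in adults, and neither was called. Parathyroid hormone, the other ligand of PTH1R, had at most 3 reads of PTH in any long bone library. Across the 12 long bone libraries, the log2 CPM of PTHLH and PTH1R had a Pearson r of 0.087 (Spearman 0.119), given as a description.

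FGFR3, the brake on chondrocyte growth, was called in neither breed comparison of the long bone. It stood at 59.1, 25.2 and 120.0 CPM in DPLBJ1 to DPLBJ3 and at 52.5, 52.0 and 41.8 CPM in MHLBJ1 to MHLBJ3. The adult values were 99.1, 57.7 and 104.8 CPM in DPs and 28.6, 130.3 and 62.2 CPM in MHs. The ranges overlapped at both stages, with the lowest juvenile library a DP and the highest adult library an MH. The differences of 0.46 ± 0.50 (adjusted p = 0.67 in edgeR) and 0.24 ± 0.50 (adjusted p = 0.814) were not called. Errors of this size do not exclude a 2-fold difference. Of its ligands in cartilage, FGF18 was highest in DPLBA2 at 305 reads, with at most 71 reads in the other long bone libraries, and FGF9 lay between 70 and 456 reads. Neither ligand was called, at 0.33 ± 1.56 and −0.55 ± 0.51 in juveniles and at 1.73 ± 1.22 and −0.09 ± 0.42 in adults.

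**Figure D3:**
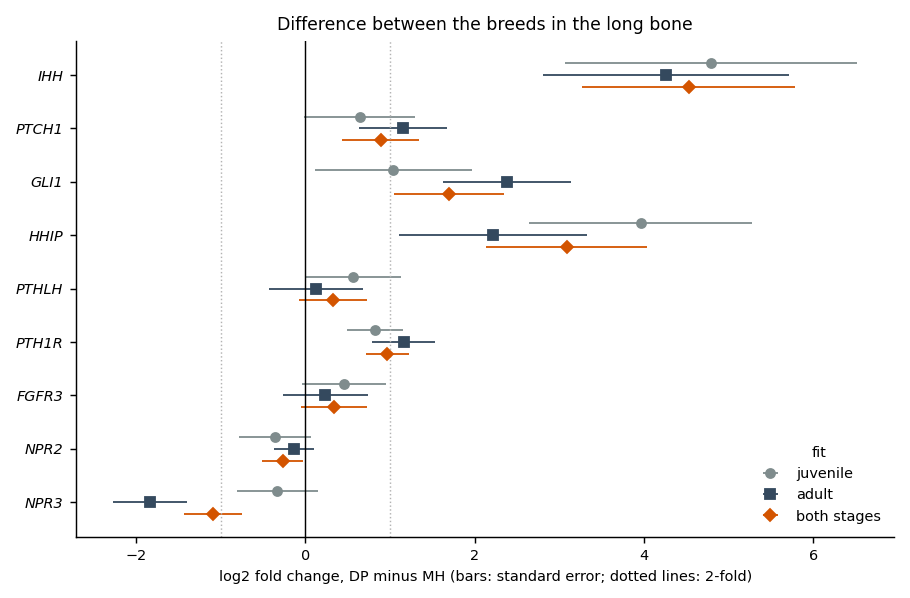
Log2 fold change, DP minus MH, of the 9 members tested in the long bone (points) with the standard error (bars) in the juvenile fit, the adult fit and the fit over both stages, with dotted lines at a 2-fold change. IHH has the largest estimate in each fit, IHH and HHIP have the widest errors, and PTH1R is near 1 with narrow errors. NPR3 is the only member called lower in adult DPs, at −1.83 ± 0.44 (adjusted p = 0.0707 in edgeR).

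In the CNP branch, the clearance receptor was lower in adult DPs. NPR3 stood at 10.8, 14.3 and 6.005 CPM in DPLBA1 to DPLBA3 and at 40.6, 21.5 and 45.5 CPM in MHLBA1 to MHLBA3. The breeds thus did not overlap in NPR3, as for 29.5% of all tested genes in adults. The difference was −1.83 ± 0.44 (adjusted p = 0.0707 in edgeR), and it was called with every left-out library and under every alternative run, including both limma scales. The exception is the stricter criterion of an adjusted p under 0.05 in the quasi-likelihood test. The endothelial list summed to 1092 to 1557 CPM in DPLBA and to 795.4, 2578 and 2971 CPM in MHLBA, and the striated muscle list to 1.80 to 2.17 CPM and 2.79 to 218.7 CPM. The part of these cells in the NPR3 difference was not tested. In juveniles NPR3 was at 18.6, 9.43 and 23.8 CPM in DPs and at 15.8, 14.2 and 34.1 CPM in MHs, a difference of −0.33 ± 0.48 that was not called. The juvenile minus adult difference between these breed effects was 1.45 ± 0.69 (adjusted p = 0.971 in edgeR) and missed the threshold of the unadjusted P. Over both stages NPR3 was lower by 1.09 on the log2 scale (SE 0.35, adjusted p = 0.0497), and this was not called without DPLBJ2, DPLBA3, MHLBJ3 or MHLBA3.

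The signalling receptor NPR2 was the most even of the 10 genes. It lay between 42.5 and 129.2 CPM in the DP long bone and between 79.7 and 108.0 CPM in the MH long bone, with DPLBJ1 the highest and DPLBJ2 the lowest of the 12. Its breed differences of −0.35 ± 0.42 and −0.14 ± 0.24 were not called. The ratio of NPR2 to NPR3 in RPKM was 5.48, 5.04 and 12.3 in DPLBA1 to DPLBA3 and 1.50, 3.83 and 1.74 in MHLBA1 to MHLBA3. It was 5.30, 3.44 and 1.64 in DPLBJ1 to DPLBJ3 and 4.56, 4.88 and 2.16 in MHLBJ1 to MHLBJ3. The adult ratios were thus higher in each DP library than in each MH library and the juvenile ratios overlapped. The ratio was formed after the NPR3 values were seen and is given without a test.

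The ligand gene NPPC was almost absent from the long bone. It had 0 reads in all 6 juvenile libraries and in DPLBA1 and DPLBA3, 2 to 4 reads in the 3 MHLBA libraries, and 54 reads (2.73 CPM) in DPLBA2. A count of 0 allows up to 3 reads in a library, for counting error only. The gene passed the filter in no long bone comparison that kept all its libraries. DPLBA2 also stood apart for OSTN, which encodes osteocrin, a bone peptide that binds NPR3. OSTN, named after its values were seen, had 622 reads in DPLBA2 and at most 3 in any other long bone library. COL3A1, a collagen of fibrous tissue, had 163304 reads there and at most 18750 elsewhere in the long bone, and its part in these values was not tested. The related natriuretic peptide genes NPPA and NPPB had at most 18 reads and 1 read in a long bone library.

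Downstream of NPR2, PRKG2 was the clearest difference among the listed CNP genes. It encodes the cGMP-dependent kinase that carries the CNP signal in chondrocytes. It stood at 16.6, 16.0 and 63.2 CPM in DPLBJ1 to DPLBJ3 and at 25.3, 21.6 and 47.0 CPM in DPLBA1 to DPLBA3. In MHs it lay between 3.04 and 3.88 CPM in juveniles and between 2.27 and 6.79 CPM in adults. All 6 DP libraries, DPLBJ1 and DPLBA2 included, were above all 6 MH libraries. Of all tested genes, 21.7% did not overlap between the breeds in juveniles and 29.5% in adults. No such share was computed over both stages. The PRKG2 difference was 3.17 ± 0.61 in juveniles (adjusted p = 0.136 in edgeR) and 2.78 ± 0.50 in adults (adjusted p = 0.0408), and both were called. The cartilage, bone, marrow and striated muscle lists differed between the same groups, and their part in the PRKG2 difference was not tested.

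**Figure D4:**
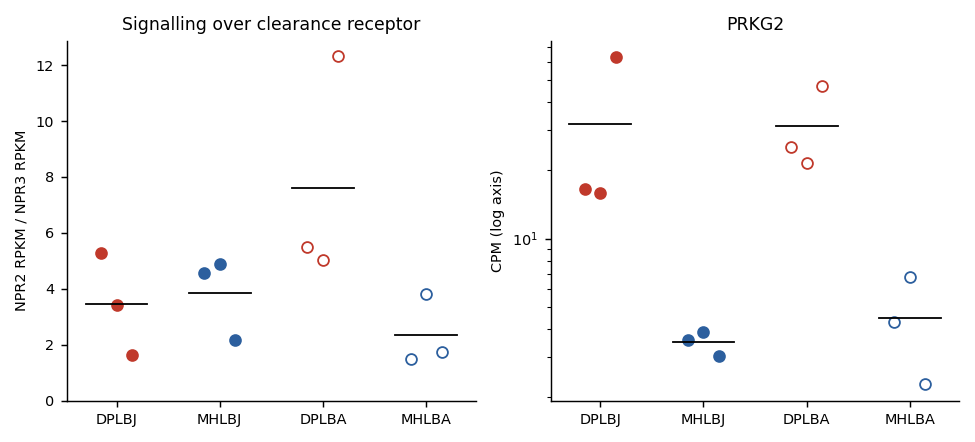
Left, the ratio of NPR2 to NPR3 in RPKM, and right, the level of PRKG2 in CPM (log axis), in each library of the 4 long bone groups, with a line at the group mean. In adults every DP ratio (5.04 to 12.3) is above every MH ratio (1.50 to 3.83), and PRKG2 is above 15 CPM in every DP library and below 7 CPM in every MH library.

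The wider pathway lists did not move as blocks. The genes named next were called, as were 13.8% of 13755 genes in juveniles and 18.3% of 14073 genes in adults. Their adjusted p in edgeR was 0.153 to 0.277 in juveniles. In adults it was 0.0509 to 0.199, except for FGF2. Among the hedgehog genes other than the members, of which 15 were tested, the co-receptor BOC (−1.04 ± 0.37) was lower in juvenile DPs. In adults SMO, the transducer that PTCH1 holds in check (1.03 ± 0.32), and GPC3, a glypican that competes for hedgehog ligand (1.44 ± 0.51), were higher. Of 12 PTHrP genes, CRTC3 (−1.08 ± 0.31), RAMP2 (−1.06 ± 0.35) and SIK2 (−1.23 ± 0.34) were lower in juvenile DPs, and ADCY6 (−1.26 ± 0.53) and SIK2 (−1.16 ± 0.33) were lower in adult DPs. SIK2 is a salt-inducible kinase that PTH1R signalling inhibits. Of the FGF genes, 18 were tested in juveniles and 19 in adults. FGF2 was lower in DPs at both stages (−1.65 ± 0.46 and −2.59 ± 0.43), and at the adult stage its adjusted p was 0.0352 in edgeR. SPRY2, a feedback inhibitor of FGF signalling, was lower in juvenile DPs (−1.85 ± 0.55). In adult DPs SPRED2, another inhibitor, was lower (−1.08 ± 0.34), and the transcription factor SNAI2 was higher (1.44 ± 0.29, adjusted p = 0.0509). Of 7 further CNP genes, CORIN, a protease that activates atrial natriuretic peptide, was lower in DPs at both stages (−2.76 ± 0.73 and −1.53 ± 0.65). NPR1, the receptor of that peptide, was also lower (−1.12 ± 0.47 and −1.05 ± 0.42). In adults the phosphodiesterase PDE5A was lower (−1.17 ± 0.36), and the peptidase MME was higher (1.30 ± 0.51). The list medians in the juvenile and adult comparisons were −0.26 and −0.16 for hedgehog, −0.21 and −0.22 for PTHrP, −0.60 and −0.09 for FGF and −0.63 and 0.12 for CNP, against 0.05 and −0.04 for all tested genes.

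Between juveniles and adults few of the long bone differences were called. In MHs 1 of 9 tested members was called, against 2.91% of 13899 genes. HHIP was lower in MHLBJ (0.142 to 1.01 CPM) than in MHLBA (1.31 to 4.45 CPM), without overlap, as were 8.79% of all tested genes in either direction. Its juvenile minus adult difference was −2.69 ± 0.91 (adjusted p = 0.998 in edgeR). The value was −4.25 without MHLBJ3, and it was not called without MHLBJ1, MHLBJ2 or MHLBA1. The cartilage list was lower in MHLBJ for 6 of 11 tested genes, and MHLBA1 held most of that RNA. The MH values that were not called ran from −1.35 ± 1.34 for IHH to 0.56 ± 0.32 for PTH1R, and the DP values from −1.21 ± 0.92 for GLI1 to 0.71 ± 0.47 for NPR3, and with the widest of these errors a 2-fold difference was not detectable. In DPs 0 of 9 members were called, against 3.14% of 13866 genes, and 0 had an unadjusted P under 0.05. The breed differences in the long bone were not told apart between the stages either, with 0 of 9 members called in the interaction (4.17% of 14735 genes) and 0 with an unadjusted P under 0.05 in edgeR, and with NPR3 called by DESeq2 (1.52). None of the 4 pathway lists held a called gene in the stage comparisons of the long bone, and in the interaction FGFR4 (6.51 ± 2.90) and SNAI2 (−1.40 ± 0.49) of the FGF list were called.

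In the pituitary the genes differed most between juvenile DPs and MHs, where 5 of 8 tested members and 20.3% of 14603 genes were called, all 5 lower in DPs. GLI1 stood at 0.305, 0.0912 and 0.122 CPM in DPPJ1 to DPPJ3 and at 0.547, 7.01 and 1.64 CPM in MHPJ1 to MHPJ3. FGFR3 stood at 2.49, 12.7 and 3.09 CPM in DPs and at 54.5, 13.7 and 79.2 CPM in MHs. Both genes were lower in every DP library, although for FGFR3 DPPJ2 and MHPJ2 nearly met. The differences were −4.18 ± 1.15 for GLI1 (adjusted p = 0.0698 in edgeR) and −3.04 ± 0.90 for FGFR3 (adjusted p = 0.0824). HHIP (−3.52 ± 1.43, adjusted p = 0.155), PTHLH (−3.11 ± 1.06, adjusted p = 0.111) and PTH1R (−1.22 ± 0.39, adjusted p = 0.0989) were also called. In DESeq2 all 5 had an adjusted p under 0.05 (0.00145 for GLI1 to 0.0241 for HHIP). The replicate block called 0 of them, and limma on log2(RPKM + 1) called FGFR3 alone. Fitting all pituitary libraries together did not call HHIP, PTH1R or FGFR3. HHIP was not called on leaving out any single library but MHPJ2, and was −4.41 without DPPJ2. PTHLH was not called without DPPJ1, DPPJ3 or MHPJ3 (−1.88) and was −4.01 without DPPJ2. PTH1R was not called without DPPJ1, DPPJ3 or MHPJ3, and FGFR3 was not called without DPPJ3 and was −4.20 without DPPJ2. GLI1 was called without each library in turn, at −2.64 without MHPJ2 and −4.81 without DPPJ1. Of the 8 tested genes, 5 did not overlap between the groups, with PTCH1, GLI1, PTH1R and FGFR3 lower and NPR2 higher in every DP library, and 40.5% of all tested genes did not overlap. All 3 MHPJ libraries had at most 8.77 CPM of anterior lobe genes, against 29030 to 33910 CPM in DPPJ, so breed and the makeup of the piece cannot be told apart here.

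Within the pituitary, 4 members were high in the same libraries. FGFR3 was at 54.5 to 81.7 CPM, HHIP at 17.9 to 58.8 CPM, PTHLH at 2.87 to 16.9 CPM and NPPC at 0.711 to 3.22 CPM in DPPA1, MHPA1, MHPJ1 and MHPJ3. In the 8 other pituitary libraries FGFR3 lay between 1.105 and 13.7 CPM, HHIP was at most 2.78, PTHLH at most 2.10 and NPPC at most 0.418 CPM. GFAP, the marker of astrocytes and pituicytes, stood at 1685 to 6807 CPM in those 4 libraries. DPPJ2 had as much GFAP (2260 CPM) with anterior lobe genes present, and its FGFR3 (12.7 CPM) and HHIP (2.78 CPM) were the highest of the 3 DPPJ libraries. The neural list summed to 6785 to 20150 CPM in the 5 libraries low in anterior lobe genes and to 660.7 to 4840 CPM in the others.

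**Figure D5:**
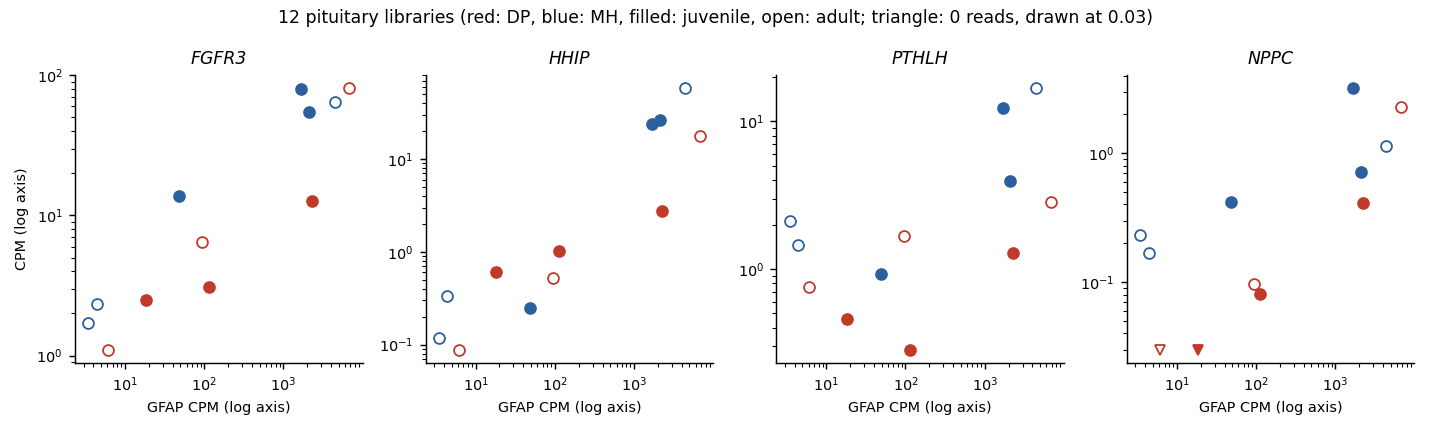
Level in CPM (vertical, log axis) of FGFR3, HHIP, PTHLH and NPPC against that of GFAP (horizontal, log axis) in the 12 pituitary libraries, red for DP, blue for MH, filled for juvenile and open for adult, with a triangle for 0 reads. All 4 genes are high in DPPA1, MHPA1, MHPJ1 and MHPJ3, where GFAP is at 1685 to 6807 CPM.

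MHPJ2 had few anterior lobe genes but stood apart from the other 4. It had the highest NPR3 (80.1 CPM, against at most 17.01 CPM elsewhere in the pituitary), GLI1 (7.01 CPM) and PTCH1 (37.0 CPM) of the 12 pituitary libraries. It also held 840 reads of DHH, the desert hedgehog ligand that Schwann cells secrete, while the other 23 libraries had at most 11. SHH had at most 62 reads in the pituitary and 2 in the long bone. GFAP was at 48.5 CPM in MHPJ2, which had 31012 reads of the myelin gene MBP. The striated muscle and adipocyte lists summed to 928.7 and 169.0 CPM, above all other pituitary libraries. The part of these tissues in its hedgehog values was not tested.

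The adult pituitary called 0 of 6 tested members (2.93% of 14376 genes), and 0 had an unadjusted P under 0.05 in edgeR. FGFR3 spanned 1.105 to 81.7 CPM in DPPA and 1.70 to 64.0 CPM in MHPA, and each group held 1 library low in anterior lobe genes. With both of those libraries left out, 0 of 6 tested members were called again, where 6.02% of all tested genes were. Between stages, 0 of 8 members were called in the MH pituitary (7.74% of 14430 genes), where PTCH1 alone had an unadjusted P under 0.05 (0.96 ± 0.35). In the DP pituitary 1 of 7 was called (3.56% of 14533 genes). That gene was NPR3, at 6.20, 4.65 and 2.40 CPM in DPPJ1 to DPPJ3 and at 6.21, 11.5 and 17.01 CPM in DPPA1 to DPPA3, a difference of −1.38 ± 0.49 (adjusted p = 0.419 in edgeR). The values of DPPJ1 and DPPA1 nearly met, and NPR3 was not called without DPPJ2, DPPJ3, DPPA2 or DPPA3. A change of the breed difference with stage was called for GLI1 and PTCH1, 2 of 9 tested members, where 15.7% of 15200 genes were called.

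Across the 12 long bone libraries, the pair of members with the highest Pearson r of log2 CPM was IHH and HHIP at 0.867 (Spearman 0.839), while PTCH1 and GLI1 had the highest Spearman value. PTCH1 followed FGFR3 (0.847, Spearman 0.818) and GLI1 (0.833, Spearman 0.853) more than it followed IHH (0.554, Spearman 0.524). PTH1R and NPR3 ran opposite to each other, at −0.767 (Spearman −0.713). The genes most like IHH among 12999 were NGEF (0.947), PRELP, a proteoglycan of cartilage (0.923), and COLGALT2, a collagen galactosyltransferase (0.919). Those most like HHIP were KCNK5 (0.953), CALB2 (0.934) and CMTM5 (0.931), and those most like PTCH1 were CXorf58 (0.968), ZNF496 (0.936) and PAPD7 (0.935). CXorf58 was also among the 3 genes most like GLI1 (0.894), after NYAP1 (0.902) and PRMT8 (0.901). For PTH1R they were ZNF662 (0.922), PRAF2 (0.917) and MOB3C (0.916), and those of FGFR3 included GGA2 (0.940) and ZDHHC5 (0.909). For NPR2 they were KIF1C, KCNMA1 (both 0.944) and SYBU (0.941), for NPR3 PAXBP1 (0.924), SELI (0.921) and UBE3C (0.908), and for PTHLH DYRK4 (0.849), KIAA1683 (0.844) and SLC18A2 (0.839). These coefficients describe 12 libraries that share breed, stage and tissue makeup and were not tested.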

How the data were processed

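Directional, rRNA-depleted libraries of pituitary and long bone epiphysis were sequenced, 24 libraries in 8 groups of 3, grouped by the labels. The authors trimmed and aligned the reads, and per the labels their processing notes name bcl2fastq, TopHat2 and edgeR. The methods instead name Salmon, mapping to cDNA and giving TPM, and another sequencer than the labels. Which program made the deposited values, and whether counting used strand, is not given in the sources used here. The authors deposited whole-number read counts of genes, not normalized, and RPKM values, scaled by gene length and library size. Deposited counts were tested with edgeR 4.0.16 (R 4.3.3) by its quasi-likelihood test with TMM normalization and filterByExpr (minimum count 10), fitted on the libraries compared and adjusted over all tested genes. The test was checked on counts simulated with known changes in genes with more reads. That check does not cover members with few reads or a wide spread. CPM used TMM factors over 24 libraries. RPKM served for levels between genes and for limma 3.58.1 on log2(RPKM + 1) and log2(RPKM + 0.1). DESeq2 1.42.0, no filter, no TMM, a replicate block and left-out libraries were alternatives. Members and lists were chosen with earlier results of these data known. Of 152 list genes, 21 had no row under their symbol. Pathway genes are named where called in a long bone comparison or fixed as ligands. The 3 most similar genes are given for members with a mean of at least 1 CPM in the long bone. A few genes that these rules name are not reported here. In the adult pituitary, same-numbered libraries of both breeds deviated together over genes (correlations 0.61, 0.46 and 0.306). Replicate 1 of each breed, DPPA1 and MHPA1, was low in anterior lobe genes (35.7 and 1.21 CPM). This check therefore cannot tell a shared batch from tissue makeup and shows no pairing. The replicate block left 0 members called there. Sequences and coordinates of the genes are not used here.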

Additional observations from a re-analysis of the deposited data

Results flagged for a closer look

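In the pituitary, a change of the breed difference with stage was called for GLI1 and PTCH1. It was tested as the juvenile minus the adult breed difference in the 12 pituitary libraries. These were 2 of 9 tested members, where 15.7% of 15200 genes were called. GLI1, the transcription factor and target of hedgehog signalling, had an interaction of −5.67 ± 1.52 on the log2 scale (adjusted p = 0.159 in edgeR). It was lower in all 3 DPPJ libraries (2 to 6 reads) than in the MHPJ libraries (10 to 84 reads), while DPPA had 7 to 48 reads and MHPA 4 to 9. Between DPPJ and MHPJ, 40.5% of all tested genes did not overlap. PTCH1, the receptor, had an interaction of −1.47 ± 0.51 (adjusted p = 0.181 in edgeR). It was at 13.6 to 14.4 CPM in DPPJ against 19.1 to 37.0 CPM in MHPJ, and at 11.2 to 30.5 CPM in DPPA against 12.6 to 13.7 CPM in MHPA. Neither had an adjusted p under 0.05 in edgeR's quasi-likelihood test, while DESeq2 gave adjusted p = 0.00768 for GLI1 (−5.77) and 0.0634 for PTCH1 (−1.50). The interaction of GLI1 was −4.42 without DPPA1, −4.20 without MHPJ2, −6.30 without DPPJ1 and −6.28 without MHPA1. The highest adult DP library for both genes was DPPA1, and the highest juvenile MH library was MHPJ2, both low in anterior lobe genes. All 3 MHPJ libraries had at most 8.77 CPM of these genes, and the DPPJ libraries had at least 29030 CPM. In the adult groups DPPA1 and MHPA1 were low in them. The interaction and the makeup of the pieces therefore cannot be told apart.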

How the results depend on the processing

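Counts are of called members among the 10, of which not all passed the filter in each fit. The share of all tested genes called was not computed for these refits, except where sets of libraries were left out together. A rise or fall in a count therefore cannot be set against that share. Leaving out 1 library at a time gave 0 to 3 in the juvenile long bone, 1 (without DPLBA3) to 6 (without DPLBA2) in the adult long bone, 1 (without DPPJ3) to 6 (without MHPJ1) in the juvenile pituitary and 0 to 1 in the adult pituitary. It gave 0 to 2 for the MH long bone stages, 0 to 1 for the DP long bone stages, 0 to 4 (without MHPA1) for the MH pituitary stages and 0 to 2 for the DP pituitary stages. It gave 0 to 1 in the long bone interaction, 2 to 5 (without MHPA1) in the pituitary interaction, and 2 (without DPLBA3) to 6 (without DPLBA2) for the breeds over both long bone stages.

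With limma on log2(RPKM + 1), which shrinks low genes, the tissue contrast called 3, the juvenile long bone 0, the adult long bone 2, the juvenile pituitary 1, the MH long bone stages 0, the DP pituitary stages 0, the pituitary interaction 0 and the breeds over both stages 1. On log2(RPKM + 0.1) the juvenile long bone gave 1, the juvenile pituitary 2, the DP pituitary stages 0, the pituitary interaction 1 and the breeds over both stages 2. Without a low-count filter the MH long bone stages gave 2, the DP long bone stages 1, the MH pituitary stages 1, the DP pituitary stages 3 and the long bone interaction 1, as did DESeq2. Fitting the 12 libraries of a tissue together gave 3 in the juvenile pituitary, 0 for the MH long bone stages and 1 for the MH pituitary stages. In edgeR's quasi-likelihood test, an adjusted p under 0.05 left 0 in the juvenile and adult long bone, the juvenile pituitary, the MH long bone and DP pituitary stages and the pituitary interaction. The replicate block gave 1 in the juvenile long bone, 0 in the juvenile pituitary and 0 for the DP pituitary stages, where the numbers mark no known pairing, and it changed no other count by more than 1.5 times. Without the 4 DP libraries rich in cartilage RNA, the breeds over both stages gave 0 members, where 11.5% of all tested genes were called. IHH was at −0.421 and HHIP at −0.998 in that fit. These libraries hold the highest values of both genes, so the fall follows from the choice. The cause of the other changes was not tested.

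The next counts cover single members' values called in the main fit, and not those called only under an alternative. Under alternatives that kept all libraries or dropped sets of them, 134 of 178 kept their direction and side of the threshold. Of the others, 42 no longer passed it and 2 reversed. With 1 library left out, 233 of 270 kept both and 37 no longer passed. Depth limits NPPC (under 10 reads in 19 of 24 libraries), IHH (16), GLI1 (7), HHIP (7) and PTHLH (5).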
